A study of Mus musculus with 26 samples.

Results

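The passage from late night into subjective day was examined in the choroid plexus (ChP) of sham-operated control mice (Ctrl), for every gene with a mean of at least 1 CPM (counts scaled to library size). Of the 26 libraries of the series, 8 entered the comparison, chosen by their time label alone: 4 of subjective day (CT4, CT8, CT28 and CT32) and 4 of late night and dawn (CT20, CT0, CT44 and CT24). CT is circadian time, the hours since the morning on which the lights stayed off, so that CT24 and later times belong to the second cycle in darkness. All 8 mice were adult males of the genotype labelled C57Bl6J with sham surgery, kept on free food in a 12 h light and 12 h dark regime before the release into darkness. The ChP of the 4th ventricle was taken out with pincers, with 1 mouse for each time and library. Each group thus joined 2 circadian times from 2 successive cycles, and a spread within a group holds the differences between mice, times and cycles together. The 12 Ctrl libraries also included early night (CT12, CT16, CT36 and CT40), which is given as values and enters only 2 alternative fits. Ctrl CT16 held liver transcripts, so early night did not set the spread in the main fit. A further 12 mice of the same genotype had the suprachiasmatic nuclei of both sides destroyed by current (SCNx), and their 8 libraries of the same times served for contrast, while the 2 libraries of a FoxJ1-ERT2-Cre+/-; Bmal1fl/fl line (KO) were not used here.

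The mammalian clock is a transcriptional loop. ARNTL (BMAL1) with CLOCK or NPAS2 binds E-boxes and drives the genes of the PER and CRY repressors, of the REV-ERB receptors (Nr1d1, Nr1d2) and of the PAR bZIP factors (Dbp, Tef, Hlf), and REV-ERB and ROR receptors compete at a shared element to repress or activate Arntl itself. The ChP is a secretory epithelium around a core of vessels and connective tissue, it makes cerebrospinal fluid (CSF), and its cells export large amounts of protein through the endoplasmic reticulum (ER).

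The 8 libraries held between 38751162 and 47335226 estimated counts, and 13700 of 55416 listed genes were tested. In a principal component analysis the first component, with 56.6% of the variance, set Ctrl CT4 apart from the other libraries, and the second, with 18.6%, placed all 4 subjective day libraries on one side and all 4 late night libraries on the other. Ctrl CT4 held brain transcripts: the summed level of 19 neuron and cerebellum markers was 898 CPM there against 141 to 208 CPM in the other 7 libraries, and that of 6 astrocyte markers was 805 against 120 to 160 CPM. The synaptic gene Snap25 stood at 2.29, 2.74, 27.03 and 3.03 CPM in late night (CT20, CT0, CT44 and CT24) and 135, 0.557, 2.71 and 0.8700 CPM in the day (CT4, CT8, CT28 and CT32), so that Ctrl CT44 held some as well, whereas Gabra6, Neurod1 and Pcp2, of cerebellar neurons, stayed below 1 CPM in all 8. In all, 357 genes were over 3 times as high in Ctrl CT4 as in every other of the 8 libraries, and 0 of them passed the test. The 10 epithelial markers, among them Ttr and Enpp2, summed to between 141800 and 166500 CPM in subjective day and between 158200 and 165300 CPM in late night.

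In these Ctrl mice 641 genes, 4.68% of those tested, differed between subjective day and late night at an adjusted p under 0.05 (edgeR quasi-likelihood F test, Benjamini-Hochberg), with 274 higher in the day (2.0%) and 367 lower (2.68%). The changes were mostly small. The median log2 fold change (day over late night) was 0.47 among the genes that rose and -0.35 among those that fell, against 0.00345 over all genes tested, and 29 rose and 16 fell by at least 1 on the log2 scale. Over all genes tested, 989 (7.22%) had all 4 day values above all 4 late night values and 1271 (9.28%) had all below. Of the 641 genes, 640 were of this kind, the exception being Aff2, which was chosen after its values were seen. The count rested on single libraries. It was 9 without Ctrl CT20, 99 without CT44, 142 without CT8, 218 without CT28, 297 without CT32, 304 without CT24 and 552 without CT0, and it rose to 1060 without CT4. The 9 genes called without Ctrl CT20 were Nr1d2, Mtmr4, Gigyf2, Zc3h6, Cables1, Zscan22, Iffo2, Zbtb40 and Ccdc88c.

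The summed levels of vessel, connective tissue and blood markers were higher in subjective day, while few single markers passed the test: 1 of 5 for mural cells, 1 of 5 for endothelium, 1 of 5 for fibroblasts, 1 of 6 for macrophages and microglia and 3 of 5 for blood. With cycle as an added term 0 of the mural cell, endothelial, fibroblast and macrophage markers were called and 3 of the blood markers. Without Ctrl CT8, CT20, CT28 or CT44 0 markers of any of these lists were called. The blood markers called were also 0 without CT0 or CT32 and in both fits of the 12 Ctrl libraries. The 5 mural cell markers summed to between 189 and 369 CPM in subjective day and between 142 and 178 CPM in late night, the 5 endothelial markers to 85.0 to 144 and 66.6 to 84.0 CPM, the 5 fibroblast markers to 369 to 484 and 346 to 368 CPM, and the 5 blood markers to 1036 to 1433 and 314 to 895 CPM. None of these 4 sums overlapped between the groups. The 7 macrophage and microglia markers summed to 55.1 to 78.3 CPM in the day and 45.5 to 56.8 CPM in late night, which overlapped. Of the single genes, Pdgfrb, the PDGF receptor of mural cells, rose by a log2 fold change of 0.54 ± 0.12 (SE, adjusted p = 0.0441), Cdh5, the endothelial cadherin, by 0.64 ± 0.14, Col1a2, a collagen chain, by 0.33 ± 0.07 and Ptprc, the leukocyte antigen CD45, by 0.70 ± 0.15. The α-globin gene Hba-a1 was at 345, 227, 216 and 126 CPM in late night and 547, 518, 404 and 489 CPM in subjective day, and it rose with Hba-a2 and Alas2, the erythroid enzyme of haem synthesis, by 1.10, 1.12 and 1.18. The α-globin genes are near-identical copies, so that the split of reads between Hba-a1 and Hba-a2 is uncertain. In tissue of this kind, fewer cells of a type and less RNA per cell cannot be told apart. With the summed level of endothelial, mural cell and fibroblast markers as a covariate in the fit, 0 genes were called by edgeR (1629 at an unadjusted p under 0.05), and all 641 genes kept the direction of their fold change, 491 of them at an unadjusted p under 0.05. The list medians moved both ways. For the ER lumen genes the median went from -0.32 to -0.42, and for the heat shock genes from -0.35 to -0.40. For the cold-inducible genes it went from 0.92 to 1.25. For the histone genes it went from -0.36 to -0.19, and for those of translocation and N-glycosylation from -0.12 to -0.06. The 3 sums in this covariate did not overlap between day and late night, so the fit cannot separate them from time of day. Neither the 0 calls nor these medians can therefore show the part of these cells in the results below, which was not tested.

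**Figure D1:**
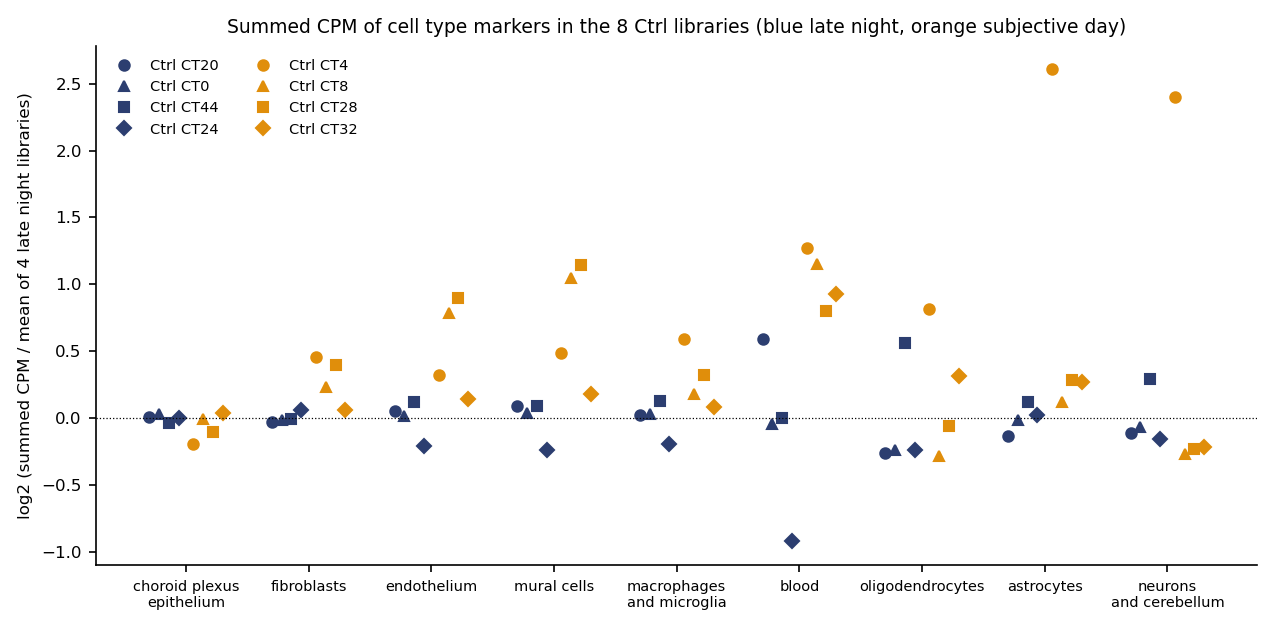
Summed CPM of the markers of 9 cell types in each of the 8 Ctrl libraries, as log2 of the ratio to the mean of the 4 late night libraries (blue late night, orange subjective day, 1 symbol per library). The vessel, fibroblast and blood sums of the day lie above those of late night, and Ctrl CT4 stands apart for astrocyte and neuron markers.

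In the text that follows, late night values are given in the order CT20, CT0, CT44 and CT24 and subjective day values in the order CT4, CT8, CT28 and CT32. All are in CPM and belong to 1 mouse each. Fold changes are log2 of day over late night with the SE of the fit (n = 4 and 4), and adjusted p-values are edgeR's over all 13700 genes.

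Of the factors that act at ROR elements or are controlled through them, Nr1d1, Nr1d2 and Rora rose and Nfil3 fell. Nr1d1, which encodes the repressor REV-ERBα, was at 2.51, 10.7, 2.55 and 13.5 CPM in late night and at 73.4, 92.8, 73.9 and 72.2 CPM in subjective day. The groups lay far apart, and within late night both dawn libraries were above both libraries of CT20 and CT44. The log2 fold change was 3.40 ± 0.51 (adjusted p = 0.0194). Its paralogue Nr1d2 (REV-ERBβ) had a flat floor of 39.5, 41.8, 38.4 and 37.3 CPM and rose to 124, 191, 130.5 and 188 CPM, with both CT8 and CT32 above both CT4 and CT28. This gave 2.01 ± 0.15 and an adjusted p of 0.00238, the smallest of all genes tested, together with Mtmr4. Rora, an activator at the same element, rose by a smaller step from 61.3, 62.7, 65.7 and 62.6 to 78.04, 94.97, 83.9 and 82.3 CPM (0.43 ± 0.06, adjusted p = 0.0177). Nfil3, a repressor at D-boxes, went from 21.9, 18.8, 24.6 and 17.8 to 8.32, 3.902, 8.09 and 5.94 CPM (-1.66 ± 0.23, adjusted p = 0.0177). The groups did not overlap for any of these 4 genes, as for 640 of the 641 called genes.

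The PAR bZIP factors, activators at D-boxes, had positive fold changes for all 3 genes, and 2 were called, of which 1 was left without Ctrl CT0, CT8, CT24 or CT32 and 0 without CT20 or CT44. Dbp stood at 11.4, 8.71, 11.6 and 10.3 CPM in late night and at 31.1, 106, 36.2 and 115 CPM in the day. CT4 and CT28 were well below CT8 and CT32, and both cycles gave the same order of the 4 times, with dawn lowest. The log2 fold change of Dbp was 2.77 ± 0.44 (adjusted p = 0.0197). Hlf rose from 40.02, 33.5, 34.9 and 34.4 to 53.8, 60.8, 42.7 and 62.5 CPM (0.62 ± 0.12, adjusted p = 0.0274). Tef did not pass the test, with 77.6, 41.4, 70.4 and 39.9 CPM in late night and 87.1, 147, 78.4 and 159 CPM in the day (1.04 ± 0.30, adjusted p = 0.075), since its CT20 and CT44 values lay close to those of CT28 and CT4.

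Of the 8 repressors with E-boxes or at E-boxes, 2 rose, 1 fell and 5 were not called. Both rises were lost with cycle as an added term and without Ctrl CT0, CT8, CT20, CT24, CT32 or CT44, and the fall was lost without CT20. Cry1, a core repressor, was at 33.4, 20.3, 35.4 and 22.8 CPM in late night and 9.05, 8.31, 10.8 and 9.47 CPM in the day, a fall in every day library (-1.57 ± 0.19, adjusted p = 0.0137). Per3 rose from 12.97, 8.71, 11.9 and 8.77 to 16.03, 36.7, 19.5 and 37.96 CPM (1.38 ± 0.29, adjusted p = 0.0385), and Bhlhe41, the repressor DEC2, from 12.2, 7.83, 14.2 and 7.37 to 19.7, 42.9, 20.9 and 40.5 CPM (1.57 ± 0.32, adjusted p = 0.0339). Both had their lowest values at dawn. Ciart, a repressor of the CLOCK complex, was at 0.578, 0.477, 0.656 and 0.165 CPM in late night and 1.17, 6.596, 0.564 and 6.55 CPM in the day, and the CT28 value lay below those of CT20 and CT44 (2.98 ± 0.82, adjusted p = 0.0689). For Per1 (-0.13 ± 0.26), Per2 (-0.62 ± 0.50), Cry2 (0.25 ± 0.14) and Bhlhe40 (0.20 ± 0.16) the groups overlapped. Per2 was at 47.6, 18.5, 44.4 and 17.3 CPM in late night and 8.91, 31.1, 11.5 and 31.7 CPM in the day, so that each group held 2 low and 2 high libraries.

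Among the 3 clock activators the fold changes were negative and 0 passed the test in edgeR, while 1 passed in DESeq2, in limma-trend and without Ctrl CT4, and all 3 with means for 6 phases of the 12 Ctrl libraries. Arntl was at 27.8, 39.6, 33.5 and 39.3 CPM in late night and 17.3, 2.95, 13.8 and 2.59 CPM in the day, so the groups did not overlap, but CT4 and CT28 were still several times above CT8 and CT32 (-1.93 ± 0.56, adjusted p = 0.077). Npas2 went from 13.6, 26.6, 15.8 and 29.5 to 17.5, 6.11, 14.5 and 5.703 CPM with overlap (-0.96 ± 0.41, adjusted p = 0.179), and Clock from 189, 199, 187 and 201 to 183, 158, 197 and 139 CPM (-0.19 ± 0.10, adjusted p = 0.262). Of 10 kinases, ligases and further outputs of the clock 0 were called, and the smallest p was that of Cdkn1a, which encodes the cell cycle inhibitor p21 (-0.63 ± 0.16, adjusted p = 0.0573).

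**Figure D2:**
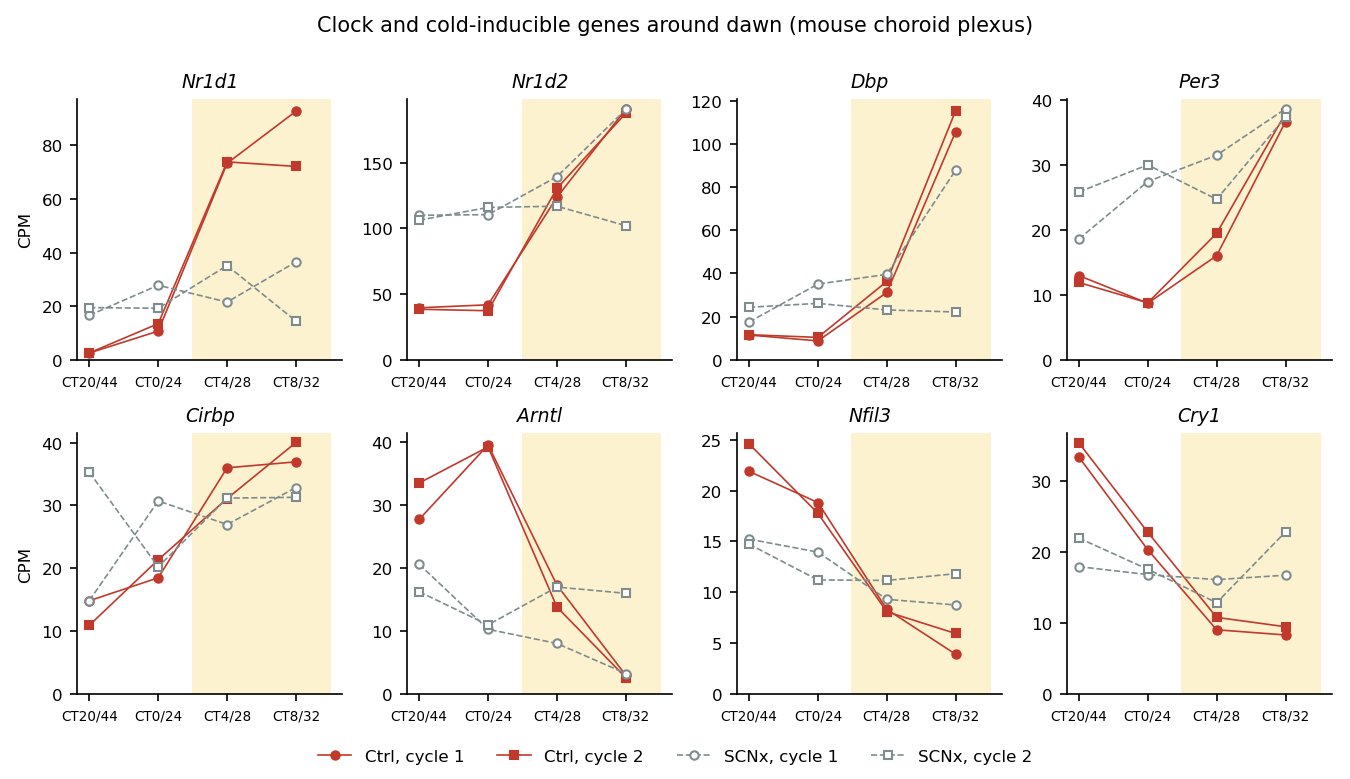
CPM of 8 clock and cold-inducible genes in circadian order from CT20 to CT8 (shaded: subjective day), with 1 mouse per point, Ctrl in red and SCNx in grey, circles for the first and squares for the second cycle. Lines join points in circadian order, not in order of sampling. In Ctrl both cycles follow the same course, and the SCNx libraries span a narrower range for Nr1d1, Nfil3 and Cry1.

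The windows before the starts of clock genes held a few of the letters searched on both strands. The E-box CACGTG was found in 4 of the 6 E-box repressors with a RefSeq window (Bhlhe41, Ciart, Cry1 and Per1) and in 1 of 3 PAR bZIP genes (Tef), against 1049 of 10482 tested genes with a window of 250 bases before to 50 bases after the start. Among genes called higher it was in 23 of 216 (10.6%) and among genes called lower in 33 of 295 (11.2%). The D-box TTATGTAA was in 1.39% of the former, 1.02% of the latter and 0.487% of all, which is 3, 3 and 51 genes. The ROR element TAGGTCA was in 1.39%, 1.36% and 1.74%. Of the repressors, Cry1 fell and Per3 rose, and the matches of these 2 are printed from RefSeq (GRCm38.p6) in the direction of the gene with the match in capitals. Cry1 holds an E-box 60 bases before its start (chr10:85185097-85185126, minus strand) and Per3 holds a pair of D-boxes (chr4:151044852-151044881 and chr4:151044805-151044834, minus strand).
Cry1: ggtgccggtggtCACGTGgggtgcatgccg
Per3, distal: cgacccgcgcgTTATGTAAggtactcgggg
Per3, proximal: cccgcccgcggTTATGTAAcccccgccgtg

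Both cold-inducible RNA-binding proteins rose. Cirbp, which is induced by mild cooling and binds messenger RNA, went from 14.8, 18.5, 10.9 and 21.3 CPM to 35.98, 36.9, 31.1 and 40.02 CPM (1.13 ± 0.18, adjusted p = 0.0197). Rbm3 went from 46.8, 48.8, 41.4 and 49.4 to 64.7, 84.9, 62.9 and 93.5 CPM (0.72 ± 0.13, adjusted p = 0.0258), with CT8 and CT32 above CT4 and CT28. The groups did not overlap for either gene, as for 640 of the 641 called genes. Without Ctrl CT8 or CT20 0 of the 2 were called, and without CT24 or CT44 1 was.

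Protein-folding genes of the ER lumen fell together. Of 23 chaperones and isomerases all 23 had a negative fold change, 11 fell and 0 rose, with a median log2 fold change of -0.32 against 0.00345 over all genes. Hspa5, the central ER chaperone BiP, was at 2012, 1608, 2173 and 1719 CPM in late night and 1199, 764, 1322 and 934 CPM in subjective day (-0.83 ± 0.18, adjusted p = 0.0396). The day values of CT8 and CT32 were lower than those of CT4 and CT28. Hsp90b1, the ER form of HSP90, fell from 2047, 1678, 2017 and 1792 to 1257, 1123, 1364 and 1165 CPM (-0.62 ± 0.09, adjusted p = 0.0179) and Calr, the lectin chaperone calreticulin, from 1895, 1564, 1795 and 1659 to 1108, 847, 1203 and 1048 CPM (-0.72 ± 0.11, adjusted p = 0.0197). These 3 were among the 4 genes with the most CPM of all that fell. The disulfide isomerase Pdia3 went from 1045, 886, 1015 and 984 to 694, 634, 722 and 699 CPM (-0.52 ± 0.07, adjusted p = 0.0177). The oxidase Ero1b, which recharges such isomerases, went from 64.5, 53.95, 66.1 and 59.4 to 41.6, 38.8, 42.7 and 41.9 CPM (-0.56 ± 0.07, adjusted p = 0.0156). Dnajb11, a cochaperone of BiP, went from 201, 161, 199 and 171 to 128, 105, 126 and 119 CPM (-0.61 ± 0.09, adjusted p = 0.0197). In each of these 6 genes all day values were below all late night values, as in all 367 genes called lower and 9.28% of all genes tested. The greatest falls of the list were those of Creld2 (-1.14) and Sdf2l1 (-1.12), which were chosen after their values were seen. Without 1 library the count of called members ran from 0 (without Ctrl CT20) to 12 (without Ctrl CT4), and it was 3 without Ctrl CT44. With early night added as a group of its own, so that all 12 Ctrl libraries set the spread, 0 of the 23 were called, and with means for 6 phases 14 were.

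Other parts of the ER quality control moved in part. In ER-associated degradation 3 of 15 genes fell and 0 rose (median -0.24). These were Derl2 (-0.31 ± 0.05, adjusted p = 0.0197) and Derl3 (-1.69 ± 0.39, adjusted p = 0.0481) of the retrotranslocation channel and the ubiquitin ligase gene Syvn1 (-0.52 ± 0.08, adjusted p = 0.0197). Derl3 was low, at 6.23, 1.73, 5.15 and 3.73 CPM in late night and 1.62, 0.859, 1.604 and 1.14 CPM in the day. Of 22 genes of translocation and N-glycosylation 4 fell and 0 rose (median -0.12), led by Magt1 (-0.49 ± 0.07) and Rpn1 (-0.31 ± 0.05), both of the oligosaccharyltransferase, with Ostc (-0.41 ± 0.08) and the signal peptidase subunit Spcs2 (-0.37 ± 0.08). Of these, 0 were called without Ctrl CT20 or with early night as a group of its own, 1 without CT8 or CT44, and 2 without CT28 or CT32. Of 15 sensors and factors of the unfolded protein response (UPR) 2 fell, 1 rose and 12 were not called, with a median of -0.02. Xbp1, whose spliced form drives ER chaperone genes, went from 207, 142, 213 and 179 to 126, 90.7, 112 and 92.5 CPM (-0.81 ± 0.15, adjusted p = 0.0274), and Atf4 changed by -0.22 ± 0.05 (adjusted p = 0.0493). Ppp1r15a, which directs the dephosphorylation of eIF2α, rose by 0.24 ± 0.05 (adjusted p = 0.0359). Without Ctrl CT8, CT20, CT28, CT32 or CT44 0 UPR genes were called. The sensor genes Ern1, Eif2ak3 and Atf6 were not called. Without Ctrl CT4 the degradation genes called were 7 and without Ctrl CT44 or Ctrl CT20 they were 0.

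The ER stress response element, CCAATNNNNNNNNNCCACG was searched on both strands of the same windows. It was in 18 of 10482 windows (0.172%), in 11 of 295 genes that fell (3.73%) and in 0 of 216 that rose. Thus 11 of the 18 genes with the motif fell, which is 61.1%, and 16 of the 18 had a negative fold change, with a median of -0.42. Of the 11 genes, 10 belong to the ER lumen list (Ero1b, Hsp90b1, Pdia6, Calr, Dnajc3, Creld2, Hspa5 and Canx) or to ER-associated degradation (Syvn1 and Derl3), and the remaining one was Hnrnpa3, an RNA-binding protein. Of the other 7 genes with the motif, Pan2, Alg12, Xlr3b, Spats2l and Acacb had negative and Adcy3 and Xlr3a positive fold changes without passing the test. Since ER genes were listed with earlier results known and this element is known from such genes, the shares are a description. The stretches of these ER genes except Calr follow, with both matches of Hsp90b1. The distance between the 2 boxes of the element was set by the search. They are RefSeq sequence of GRCm38.p6 in the direction of each gene, with the element in capitals, written as CCAAT first or, where it lies on the opposite strand, as CGTGG first.
Hspa5 (chr2:34772020-34772048, plus strand): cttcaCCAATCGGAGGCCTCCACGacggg
Hsp90b1 (chr10:86705633-86705661, minus strand): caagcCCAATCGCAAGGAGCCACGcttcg
Hsp90b1 (chr10:86705528-86705556, minus strand): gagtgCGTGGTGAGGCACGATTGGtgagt
Pdia6 (chr12:17266486-17266514, plus strand): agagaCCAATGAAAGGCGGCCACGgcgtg
Dnajc3 (chr14:118937822-118937850, plus strand): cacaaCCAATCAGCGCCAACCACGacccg
Canx (chr11:50325795-50325823, minus strand): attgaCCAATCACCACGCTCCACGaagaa
Creld2 (chr15:88819515-88819543, plus strand): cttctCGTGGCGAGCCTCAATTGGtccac
Ero1b (chr13:12565677-12565705, plus strand): ggcctCGTGGTCCCGCCTCATTGGccgcc
Syvn1 (chr19:6046527-6046555, plus strand): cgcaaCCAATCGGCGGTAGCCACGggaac
Derl3 (chr10:75893237-75893265, plus strand): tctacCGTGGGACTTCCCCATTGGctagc

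**Figure D3:**
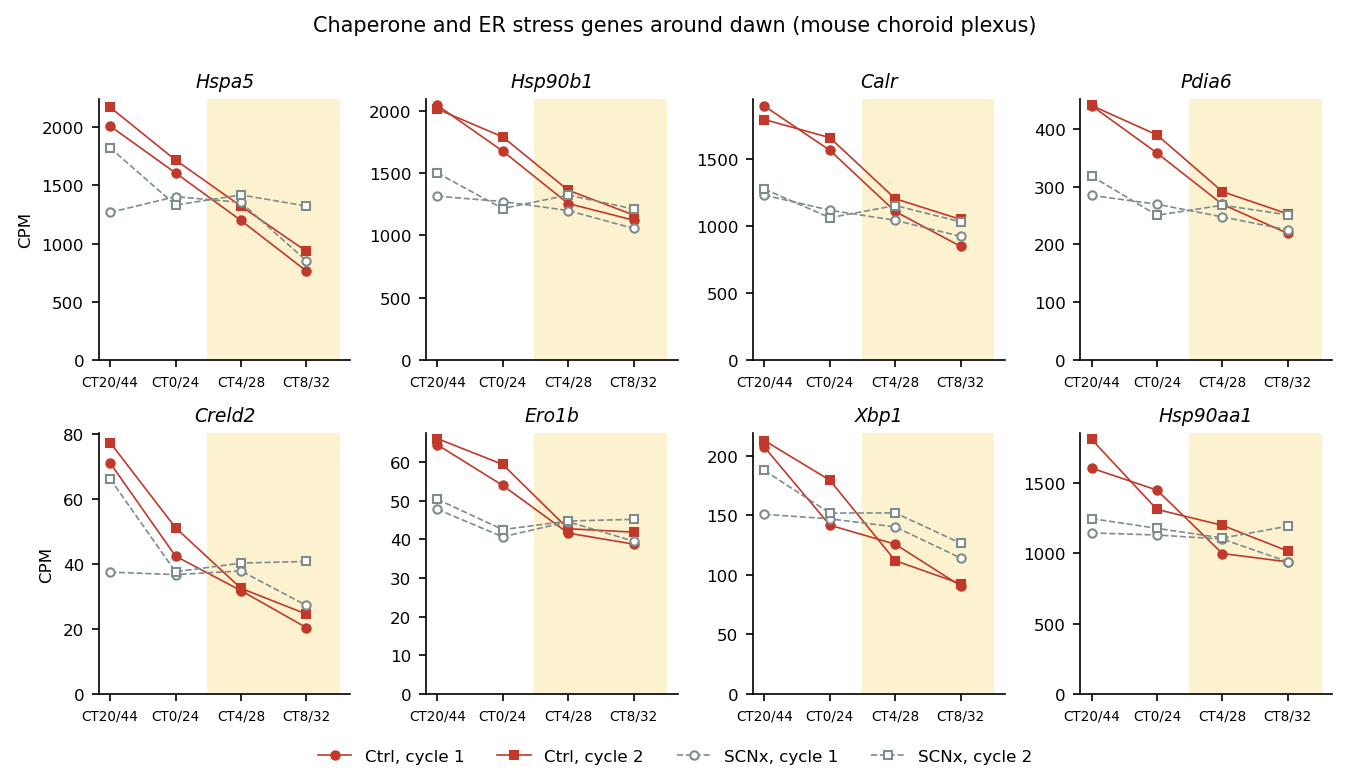
CPM of 8 chaperone and ER stress genes in circadian order from CT20 to CT8 (shaded: subjective day), 1 mouse per point, Ctrl in red and SCNx in grey, circles for the first and squares for the second cycle. Lines join points in circadian order. In Ctrl all 8 genes are lower at all 4 day times than at all 4 late night times, as are all 367 genes called lower.

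Cytosolic and mitochondrial heat shock genes fell as well. Of 29 genes, 28 had a negative fold change, 7 fell and 0 rose (median -0.35). Ahsa2, an activator of the HSP90 ATPase, went from 32.9, 32.3, 39.5 and 27.4 to 16.2, 16.3, 17.99 and 15.3 CPM (-1.004 ± 0.11, adjusted p = 0.0094). Hsp90aa1, the inducible cytosolic HSP90, went from 1605, 1449, 1809.5 and 1312 to 998, 939, 1199 and 1016 CPM (-0.57 ± 0.11, adjusted p = 0.0325). Chordc1, a cochaperone of HSP90, went from 77.3, 67.6, 87.6 and 65.5 to 43.4, 45.01, 48.7 and 39.1 CPM (-0.76 ± 0.11, adjusted p = 0.0177), and Bag3, a cochaperone of HSP70, from 42.4, 45.7, 43.7 and 43.9 to 32.5, 33.4, 35.4 and 31.8 CPM (-0.40 ± 0.05, adjusted p = 0.0137). Dnajb1, the main HSP40, changed by -0.55 ± 0.10 (adjusted p = 0.0258). Hspa8, the constitutive HSP70, did not pass the test at -0.35 ± 0.10 (adjusted p = 0.0706), a gene chosen after its values were seen. Of the 8 subunits of the CCT chaperonin, which folds actin and tubulin, 0 were called and all 8 fold changes were negative (median -0.09). The heat shock element GAANNTTCNNGAA was in 3 of 22 heat shock genes with a window (Chordc1, Hspe1 and Hsph1), in 0.339% of the genes that fell and in 0.382% of all. Without 1 library the heat shock genes called ran from 0 (without Ctrl CT20) to 11 (without Ctrl CT4), with 3 without CT8, CT32 or CT44.

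**Figure D4:**
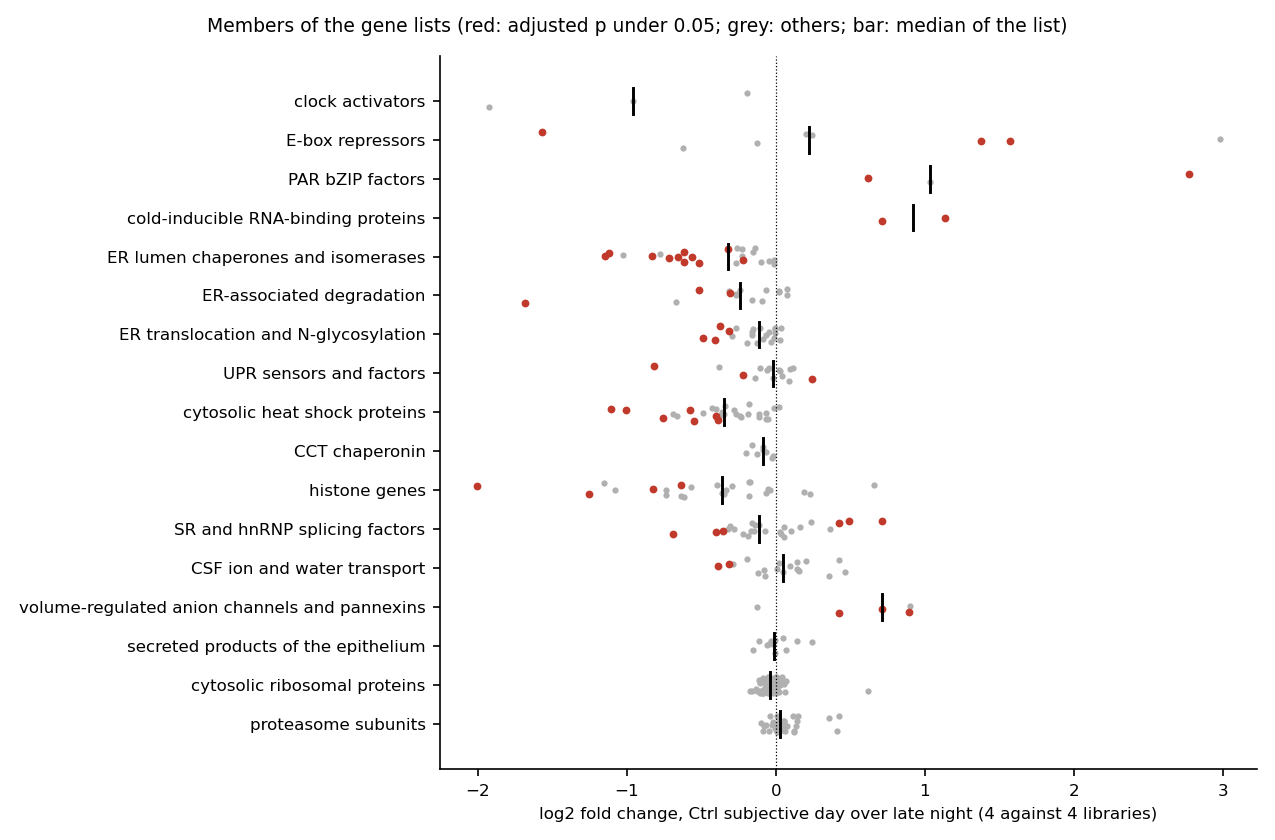
Log2 fold change (Ctrl subjective day over late night, 4 against 4 libraries) of each tested member of 17 gene lists, with genes at an adjusted p under 0.05 in red, others in grey and the median of each list as a black bar. The ER lumen and heat shock lists lie left of 0 nearly as a whole, while the medians of ribosomal protein and proteasome genes were -0.04 and 0.03. Of the ribosomal protein genes 63 had negative and 15 positive fold changes, and of the proteasome subunits 9 negative and 28 positive.

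Histone genes leaned to lower levels in the day. Of 78 listed genes 25 passed the minimum level, 22 of these had a negative fold change, 4 fell and 0 rose (median -0.36). The linker histone gene H1f4 changed by -0.83 ± 0.19 (adjusted p = 0.0489). H2bc6 went from 41.4, 32.97, 43.96 and 40.9 to 26.9, 22.4, 26.1 and 26.97 CPM (-0.64 ± 0.10, adjusted p = 0.0197), and H2bc24 from 2.39, 4.02, 5.199 and 2.86 to 0.492, 1.65, 0.932 and 0.532 CPM (-2.003 ± 0.43, adjusted p = 0.0394). H3c4 changed by -1.25 ± 0.24 (adjusted p = 0.0292). Messages of replication-dependent histones lack a poly(A) tail and these libraries were enriched for polyadenylated RNA, so their levels here are those of a minor fraction. The copies of these genes are also alike, so reads may be split between them. Without Ctrl CT4 the count was 8, without CT24 or CT28 it was 1, without CT8 or CT32 it was 2 and without CT20 or CT44 it was 0. The splicing factors moved both ways, with 3 of 25 higher and 3 lower (median -0.11), and 0 were called without Ctrl CT20. Hnrnpd, which binds AU-rich messages, went from 74.1, 80.99, 67.1 and 71.95 to 92.8, 103.82, 96.2 and 101 CPM (0.42 ± 0.06, adjusted p = 0.0177) and Srsf10, an SR factor, from 101, 90.1, 102 and 101 to 75.6, 78.7, 77.2 and 66.7 CPM (-0.40 ± 0.07, adjusted p = 0.02). Cwc27, a spliceosome component, rose by 0.49 and Tra2a, a splicing activator, changed by -0.69.

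Genes of the transport functions of the ChP changed in small numbers. Of 19 tested genes of CSF ion and water transport 2 fell and 0 rose, and 0 were called without Ctrl CT20. Kcne2, a β subunit of potassium channels in the apical membrane, was at 1139.7, 1129.9, 1077 and 1095 CPM in late night and 905, 791, 853 and 846 CPM in the day (-0.39 ± 0.06, adjusted p = 0.0177). Trpv4, a cation channel opened by cell swelling, went from 421, 415, 420.5 and 438 to 353, 332, 324 and 349.9 CPM (-0.32 ± 0.05, adjusted p = 0.0177). For both genes the gap between the groups was wider than the range within either. No day value reached a late night value, as in all 367 genes called lower. Of the volume-regulated anion channel genes, whose products form channels with LRRC8A, Lrrc8b, Lrrc8c and Lrrc8d rose. Lrrc8c went from 16.1, 23.7, 15.7 and 16.9 to 24.7, 43.7, 27.9 and 38.3 CPM (0.89 ± 0.20, adjusted p = 0.0424), Lrrc8d from 21.9, 24.1, 21.1 and 26.6 to 31.1, 32.1, 29.6 and 33.2 CPM (0.43 ± 0.07, adjusted p = 0.0232) and Lrrc8b from 10.6, 11.5, 9.31 and 14.7 to 22.01, 21.3, 14.8 and 17.3 CPM (0.71 ± 0.16, adjusted p = 0.0472). The obligate subunit Lrrc8a was not called (-0.12 ± 0.06). These 3 calls were lost without Ctrl CT8, CT20, CT32 or CT44. Of 22 solute and vitamin transporters Slc6a6, the taurine carrier, rose from 23.6, 24.2, 21.9 and 23.8 to 55.7, 38.8, 39.9 and 30.9 CPM (0.82 ± 0.16, adjusted p = 0.0283), and Slc22a8, the organic anion carrier OAT3, changed by -0.26 ± 0.06 (adjusted p = 0.0481), and 0 of the 22 were called without Ctrl CT0, CT8, CT20, CT24, CT28 or CT44.

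In the WNT list 2 of 15 genes rose and 2 fell, but without Ctrl CT0, CT8, CT20, CT24, CT32 or CT44 0 rose, and 1 fell in the same fits except without CT0. Ccdc88c, which encodes the Dishevelled-binding protein DAPLE, went from 57.9, 62.9, 60.7 and 62.3 to 46.1, 40.1, 42.6 and 40.6 CPM (-0.53 ± 0.06, adjusted p = 0.0103), and Dvl1, a Dishevelled, changed by -0.37 ± 0.08 (adjusted p = 0.0383). Nkd2, an inhibitor of Dishevelled, rose by 0.94 ± 0.20 and Nfatc2, a calcium-responsive transcription factor, by 0.43 ± 0.08. Of 13 junction and cadherin genes 1 rose, the scaffold gene Tjp1 (ZO-1, 0.24 ± 0.05, adjusted p = 0.0434). Of 17 genes of fasting and insulin signalling Txnip, an inhibitor of thioredoxin, rose by 0.41 ± 0.09, and Pdk4, a kinase that restrains pyruvate oxidation, changed by -0.42 ± 0.08 (adjusted p = 0.0468 and 0.0306). Among 13 glucocorticoid targets and the receptor, Nr3c1 itself rose by 0.20 ± 0.04 (adjusted p = 0.0297) and the sulfotransferase gene Sult1a1 changed by -0.52 ± 0.12 (adjusted p = 0.0476). Calls made up 7.69% of the junction, 11.8% of the fasting and 15.4% of the glucocorticoid list, against 4.68% of all genes. With cycle as an added term or without Ctrl CT8, CT20, CT28 or CT44 each of these lists had 0 calls. Of 91 nuclear genes of the respiratory chain 2 fell, Ndufab1 (-0.29 ± 0.06) and the assembly factor Ndufaf4 (-0.22 ± 0.05), and the list's median was -0.08. This is 2.2% of the list, no more than the 2.68% called lower over all genes.

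In 9 further lists 0 genes were called. They were the 78 cytosolic ribosomal proteins (median -0.04), 37 proteasome subunits (0.03), 23 genes of sterol and fatty acid synthesis (0.02), 19 NRF2 and antioxidant genes (-0.05), 16 immediate early genes (0.19), 16 motile cilia genes (0.17), 15 cytokine receptors (0.03), 14 angiogenic signals (0.25) and 12 secreted products of the epithelium (-0.01). The smallest p in each belonged to Rps4l, a ribosomal protein (0.62 ± 0.22), Psmb10, an immunoproteasome subunit (0.43 ± 0.13), Elovl6, a fatty acid elongase (-0.17 ± 0.04), Slc7a11, the cystine carrier (1.16 ± 0.29), Btg2, an antiproliferative gene (-0.34 ± 0.09), Dnah9, an axonemal dynein (0.60 ± 0.17), Tlr4, the lipopolysaccharide receptor (0.56 ± 0.14), Eng, an endothelial coreceptor (0.54 ± 0.15), and Gas6, a ligand of TAM receptors (-0.15 ± 0.06), with adjusted p-values between 0.0548 and 0.14. With DESeq2 6 immediate early genes were higher and 2 lower, and without Ctrl CT4 5 motile cilia genes were higher by edgeR.

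Many of the genes with the smallest p outside these lists had changes of less than 2-fold with little spread. Mtmr4, an endosomal lipid phosphatase, was at 102, 97.1, 100.01 and 96.1 CPM in late night and 60.7, 68.3, 65.5 and 64.2 CPM in the day (-0.61 ± 0.04, adjusted p = 0.00238). Gigyf2, a translational repressor with 4EHP, went the other way from 70.4, 73.3, 71.1 and 73.7 to 93.7, 97.3, 92.2 and 96.2 CPM (0.40 ± 0.04, adjusted p = 0.00756). Zc3h6, a zinc finger gene, about doubled from 6.06, 6.13, 5.45 and 6.92 to 13.2, 12.8, 11.1 and 11.3 CPM (0.97 ± 0.09, adjusted p = 0.00756), and Cables1, which links cyclin-dependent kinases to ABL, went from 42.5, 41.6, 47.02 and 44.3 to 22.2, 20.4, 26.4 and 24.5 CPM (-0.91 ± 0.08, adjusted p = 0.00756). Klf11, a Krüppel-like repressor, rose from 2.14, 1.61, 2.65 and 2.22 to 6.56, 5.81, 5.92 and 5.82 CPM (1.48 ± 0.17, adjusted p = 0.0103). In these 5 genes the gap between the groups exceeded the whole range within either group. They were picked by smallest p among called genes without overlap, which favours such a gap, so this is a description. The other genes with the smallest p were Uaca (0.59), Arhgdib (0.65), Ccdc190 (0.77) and 9930014A18Rik (1.12) among those that rose, and Zscan22 (-0.78), Iffo2 (-0.62), Zbtb40 (-0.72) and Palmd (-0.34) among those that fell. Scx, a transcription factor of tendon, fell from 7.17, 5.52, 8.28 and 4.26 to 3.001, 2.14, 2.64 and 2.08 CPM (-1.35 ± 0.23, adjusted p = 0.0232). Among the genes with the most CPM that rose, beside Hba-a1, were Ncl, the nucleolar protein nucleolin (0.31 ± 0.07), Utrn, the dystrophin homologue utrophin (0.40 ± 0.08), and Eif5, an initiation factor (0.25 ± 0.05). Serpind1, the plasma inhibitor heparin cofactor II, rose by 1.96 ± 0.45 at low levels. It went from 0.603, 0.351, 0.707 and 0.618 to 4.01, 2.11, 1.91 and 0.846 CPM, and was called in 1 of 7 fits without 1 library. The 10 hepatocyte markers summed to no more than 5.73 CPM in these 8 libraries. In Ctrl CT16 and SCNx CT0, which held liver transcripts, Serpind1 was at 19.1 and 55.7 CPM. Whether liver RNA has a part in its rise was not tested.

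Across the 4 circadian times the change was concentrated between dawn and CT4. With the 2 cycles averaged on a log2 (CPM + 1) scale, the largest of the steps CT20 to CT0, CT0 to CT4 and CT4 to CT8 was the middle one in 249 of the 274 genes that rose (90.9%) and in 344 of the 367 that fell (93.7%). The median of that step was 0.35 for the genes that rose, with 0.06 for the step before it and 0.05 for the step after it. For the genes that fell the medians were -0.31, -0.06 and -0.00282. The contrast sets its groups apart at this step, which favours it, so this is a description. In early night 63.9% of the genes that rose and 56.7% of those that fell stood nearer to their subjective day level than to their late night level. These shares include Ctrl CT16, which held liver transcripts. Hspa5 was at 733, 2128, 820.1 and 1974 CPM at CT12, CT16, CT36 and CT40, so that CT12 and CT36 were as low as the day and CT16 and CT40 as high as late night. Hsp90b1 had 867, 1599, 957 and 1548 CPM at these times, with CT12 and CT36 below every day value, and Dbp had 129, 36.3, 136 and 34.7 CPM, with CT12 and CT36 above every day value.

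The 2 cycles were tested as 2 contrasts of 1 fit over the 8 Ctrl libraries, with 4 group means and 4 residual degrees of freedom. Each contrast set 2 day against 2 late night libraries. In neither was a gene called by edgeR, with a smallest adjusted p of 0.103 in the first and 0.163 in the second, 2111 (15.4%) and 1626 (11.9%) genes at an unadjusted p under 0.05, and 299 and 99 called by DESeq2. Of the 2111 genes of the first cycle 87.5% had the same sign in the second, and of the 1626 of the second 93.6% had the same sign in the first, against 69.1% over all genes. In both lists with the same sign were 707 genes, 33.5% of the first list and 43.5% of the second. The cycles share no library, but both contrasts use the same estimate of each gene's spread, so the 2 lists are not independent. For Hspa5 the log2 fold change was -0.88 in the first and -0.79 in the second cycle, for Nr1d1 3.65 and 3.17, for Cirbp 1.13 and 1.14 and for Kcne2 -0.42 and -0.35. A difference of the contrast between the cycles was called for 0 genes by edgeR (334 at an unadjusted p under 0.05) and for 1 by DESeq2. The 3 genes with the smallest p were Dusp15, a phosphatase gene, with -0.37 and -1.19, mt-Co3, a mitochondrially encoded oxidase subunit, with 1.55 and -0.30, and Mme, which encodes neprilysin, with -0.34 and 0.21. The brain marker Snap25 had opposite signs, with 4.76 and -3.04, and the cycles hold the 2 libraries with most of it, Ctrl CT4 and Ctrl CT44.

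In SCNx mice at the same 8 times the fold changes of day over late night lay nearer to 0 for Nr1d1, Nr1d2, Cry1, Hsp90b1 and Ero1b. Nr1d2 in SCNx was at 109.9, 110.4, 106 and 116 CPM in late night and 139, 191, 117 and 102 CPM in the day, a log2 fold change of 0.31 ± 0.17, and the difference from Ctrl was -1.70 ± 0.25 (unadjusted p = 7.21e-06 in edgeR over 16 libraries, adjusted p = 0.102). Nr1d1 was at 16.6, 27.8, 19.5 and 19.2 and 21.5, 36.5, 35.1 and 14.4 CPM in SCNx, with a difference from Ctrl of -3.04 ± 0.66 (adjusted p = 0.571). Cry1 was at 17.96, 16.8, 21.98 and 17.6 and 16.1, 16.7, 12.9 and 22.9 CPM, with a difference of 1.46 ± 0.27 (adjusted p = 0.463). In SCNx the groups overlapped for Nr1d2, Cry1 and Nr1d1. For Hsp90b1 the SCNx fold change was -0.15 ± 0.09 and the difference 0.47 ± 0.13 (adjusted p = 0.717), and for Ero1b they were -0.06 ± 0.08 and 0.50 ± 0.11 (adjusted p = 0.571). Over 14181 genes the difference between Ctrl and SCNx was called for 0 genes (973 at an unadjusted p under 0.05, 6.86%), while Nr1d2 alone was called by limma-trend, with a minimum of 5 CPM and without SCNx CT8, and DESeq2 called 19 genes, among them Nr1d2, Cry1, Nr1d1, Ero1b and Nfil3. Of the 641 genes called in Ctrl, 546 (85.2%) had the same sign in SCNx, against 65.9% of all genes tested, and their median change along the Ctrl direction was 0.11 in SCNx on the log2 scale. For day against late night in SCNx, of 13658 genes tested in both fits, 0 were called by edgeR (1198 at an unadjusted p under 0.05). The library SCNx CT8 stood near Ctrl CT8 for Nr1d2 (191 CPM in both), Dbp (87.8 and 106 CPM) and Arntl (3.25 and 2.95 CPM). SCNx CT32 held brain transcripts, with 840 CPM of neuron markers, and SCNx CT0 12020 CPM of hepatocyte markers. Without these 2 and Ctrl CT4, the difference was called for Nr1d2 alone. Blood markers in SCNx ran from 152 to 6596 CPM, with the highest sum in SCNx CT44. Hba-a1 in SCNx had a fold change of -1.95 ± 0.87, opposite in sign to Ctrl and larger. Its level was 2737 CPM in SCNx CT44 and at most 416 CPM in every other SCNx library of these times. Among those other libraries the day and late night values overlapped, so the opposite sign may rest on SCNx CT44 alone.

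**Figure D5:**
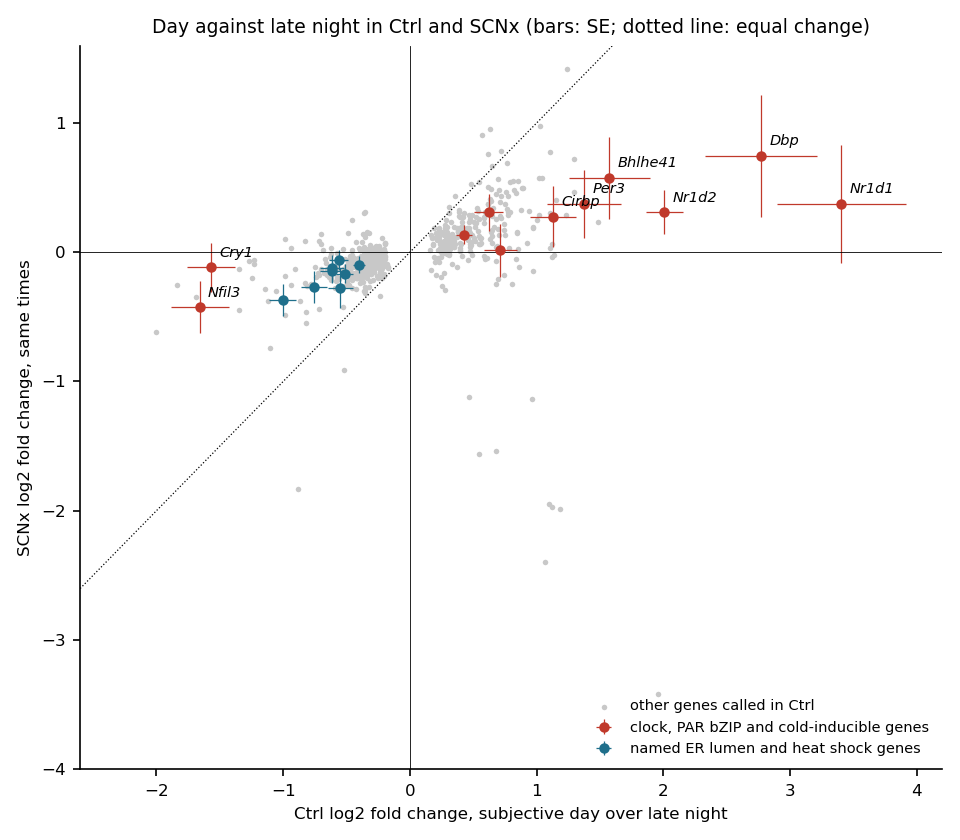
Log2 fold change of day over late night in Ctrl (horizontal) and in SCNx (vertical) for the 641 genes called in Ctrl, with SE bars for the named clock and cold-inducible genes (red) and the named ER and heat shock genes (blue), and a dotted line of equal change. Since the genes were chosen on the Ctrl axis, points lie nearer to 0 in SCNx partly by this choice. Nr1d1 and Nr1d2 lie far below the line of equal change.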

How the data were processed

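RNA of the ChP was depleted of rRNA, enriched for poly(A) and sequenced single-end. Per the labels and methods, the authors trimmed reads with cutadapt 3.4, aligned them with STAR to GRCm39 and deposited Salmon 1.9.0 estimated counts per gene in nf-core/rnaseq, with SAMtools 1.16.1 and StringTie 2.2.1 also named in the submitters' processing notes. The deposited estimated counts were rounded to whole numbers here. Fits used edgeR 4.0.16 in R 4.3.3 (TMM, quasi-likelihood F test, Benjamini-Hochberg, threshold 0.05) on genes averaging 1 CPM or more in the libraries of the fit. The printed CPM used TMM factors of the 12 Ctrl and 8 SCNx libraries together. The text's CPM and fold changes therefore do not share one scaling. The alternatives used DESeq2 1.42.0 and limma 3.58.1. Figures used matplotlib 3.10.9.

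Groups came from the time and surgery in the labels. Each library is a separate mouse, and no pair of libraries had identical counts. The labels carry no replicate numbers that pair samples. The gene lists, markers and comparison were chosen with earlier results of these data known. Genes were named by fixed rules: all members of the clock and cold-inducible lists and up to 4 members per other list. Also named were the 3 genes with the smallest p for each difference and the called genes with the highest level per direction. Those with the smallest p or largest change per direction were called genes whose groups did not overlap, with the same sign in both cycles. A result that these rules would name is not reported here. Genes named outside these rules are marked as such, except where a count of 5 or fewer or a printed sequence names them. In the simulated data for the main comparison, 40.5% of 200 genes changed by 0.5 on the log2 scale were called, and 76.5% of those changed by 1. Depth sets counting precision only. Promoter windows were RefSeq sequence of GRCm38.p6, matched by symbol, and none of their coordinates were joined to the counts.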

Additional observations from a re-analysis of the deposited data

Results flagged for a closer look

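Of 116 groups of 4 libraries tested, 7 held a library far from the other 3 by Dixon's criterion at the 95% level, and chance flags about 1 in 20 groups. In subjective day Ctrl CT4 stood apart with 805 CPM of astrocyte markers (others 143.5 to 160.3) and 898 CPM of neuron and cerebellum markers (others 141 to 146). In late night Ctrl CT44 had 166 CPM of oligodendrocyte markers (others 94.4 to 95.8), Ctrl CT20 had 5.73 CPM of hepatocyte markers (others 1.58 to 1.92) and Ctrl CT24 had 142 CPM of mural cell markers (others 172 to 178). Nr1d1 was at 92.8 CPM in Ctrl CT8 (others 72.2 to 73.9), and Klf11 was at 6.56 CPM in Ctrl CT4 (others 5.81 to 5.92).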

How the results depend on the processing

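The 641 calls depended on the test and on single libraries. DESeq2 called 2556 genes, means for 6 phases of the 12 Ctrl libraries 1240 and cycle as an added term 348. Leaving out each library in turn gave between 9 (without Ctrl CT20) and 1060 (without Ctrl CT4). Chosen after seeing the data, the brain marker sum as a covariate gave 1247 and the vessel and connective tissue marker sum 0. With the latter, 491 of the 641 genes were still at an unadjusted p under 0.05. Some list medians grew, to -0.42 for ER lumen, 1.25 for cold-inducible and 1.45 for PAR bZIP genes, against -0.32, 0.92 and 1.04. Others shrank, among them histone genes to -0.19 and translocation and N-glycosylation to -0.06, against -0.36 and -0.12. The vessel and connective tissue sums did not overlap between day and late night, so this fit cannot separate them from time of day. All 641 genes kept their sign in each of these fits in which they were tested. In the first cycle DESeq2 called 299 and no minimum level 1070, and in the second 99 and 161, against 0. For the difference between cycles DESeq2 called 1 and no minimum 198, against 0. For the difference between Ctrl and SCNx DESeq2 called 19, and a minimum of 5 CPM, limma-trend and the added setting without Ctrl CT4, SCNx CT0 and SCNx CT32 called 1 each, while leaving out 1 library gave 0 to 1. The causes were not tested. No paired analysis was possible because the labels carry no replicate numbers, and the fit with cycle as an added term, in which 339 of the 641 genes were called, blocks by time label only. Simulated differences between Ctrl and SCNx of 1 on the log2 scale were called in 55.0% of 200 genes and those of 0.5 in 9.5%, which limits what 4 libraries per group can show.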
